A study of Mus musculus with 4 samples.

Results

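The 9 genes that encode the chains of MHC class I in the mouse spinal cord were followed through 4 single-cell libraries. They were found by symbol among the 53647 genes of the deposited tables, and each symbol matched 1 gene ID. They comprise the 2 classical heavy chains H2-K1 (ENSMUSG00000061232) and H2-D1 (ENSMUSG00000073411), the light chain B2m (ENSMUSG00000060802), and 6 non-classical heavy chains: H2-Q4, H2-Q6, H2-Q7, H2-T22, H2-T23 and H2-M3. The members were chosen by function, and the rule uses no measured value, though earlier results of these data were known when the choice was made.

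The tissue was the lesion segment of the spinal cord of aged C57BL/6J mice, taken 28 days after spinal cord injury. Every animal was injured and aged (the labels state neither the exact age nor the antibody dose), and myelin debris was removed from the cell suspension with beads. The anti-CD8 group (2 libraries) had received an antibody that binds CD8 (a surface protein of cytotoxic T lymphocytes), and the IgG group (2 libraries) an IgG antibody. No uninjured or young mice are part of these groups, the number of mice behind a library is not given, and p-values therefore measure the spread between libraries. The comparison asks what the anti-CD8 antibody did to class I transcripts in each kind of cell of the lesion.

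A class I molecule is a heavy chain held at the cell surface by the light chain beta-2-microglobulin, with a short peptide in its groove. The classical heavy chains show peptides of the cell's own proteins to CD8 T cells, and the same molecules hold back natural killer (NK) cells. The non-classical chains are less variable: H2-T23 encodes Qa-1, which shows signal peptides of other class I chains to the CD94/NKG2 receptors of NK and T cells, H2-Q7 encodes Qa-2, H2-M3 presents formylated peptides, and H2-T22 is a ligand of some gamma-delta T cells. Interferons raise class I transcription, and in the resting nervous system neurons carry little of it.

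The promoters of 4 chains are shown here because the results below turn on these genes. The exact kappa-B-like and interferon-response-like letters searched below are in only some of them. Each run is the 250 bases before the RefSeq start of the gene on build GRCm38.p6 (a build older than the GRCm39 of the counts, and used only for sequence), written 5′ to 3′ on the gene's strand. The capitals mark the matches to the 4 motifs below. All 9 members matched an entry of the RefSeq table.
H2-K1 promoter, chr17:34000348-34000597, minus strand: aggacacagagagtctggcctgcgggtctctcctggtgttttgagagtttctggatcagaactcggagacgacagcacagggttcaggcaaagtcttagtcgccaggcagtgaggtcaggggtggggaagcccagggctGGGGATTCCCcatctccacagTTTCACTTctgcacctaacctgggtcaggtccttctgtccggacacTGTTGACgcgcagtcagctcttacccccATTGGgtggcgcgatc
B2m promoter, chr2:122147437-122147686, plus strand: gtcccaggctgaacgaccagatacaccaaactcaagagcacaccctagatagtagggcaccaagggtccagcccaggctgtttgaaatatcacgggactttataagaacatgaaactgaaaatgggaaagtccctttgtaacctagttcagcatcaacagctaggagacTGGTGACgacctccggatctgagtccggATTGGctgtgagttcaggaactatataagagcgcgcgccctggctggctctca
H2-Q7 promoter, chr17:35438905-35439154, plus strand: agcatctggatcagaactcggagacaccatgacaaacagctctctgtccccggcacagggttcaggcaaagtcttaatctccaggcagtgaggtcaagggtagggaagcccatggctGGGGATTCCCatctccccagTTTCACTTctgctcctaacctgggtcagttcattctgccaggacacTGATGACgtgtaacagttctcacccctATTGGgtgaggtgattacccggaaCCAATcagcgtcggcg
H2-T23 promoter, chr17:36032702-36032951, minus strand: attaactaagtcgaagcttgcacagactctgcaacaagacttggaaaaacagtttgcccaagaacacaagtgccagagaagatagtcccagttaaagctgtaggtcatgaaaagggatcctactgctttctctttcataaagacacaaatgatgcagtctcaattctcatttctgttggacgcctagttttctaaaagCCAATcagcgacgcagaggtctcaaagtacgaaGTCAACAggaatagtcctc

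The motifs were chosen after the sequences had been seen and were searched on both strands. A kappa-B-like run of 10 bases, which in H2-K1 and H2-Q7 reads GGGGATTCCC and may hold any base at position 8, was found in 5 of 9 member promoters (H2-K1, H2-D1, H2-Q4, H2-Q6 and H2-Q7) and in 0.241% of the promoters of 27025 genes. An interferon-response-like run, TTTCACTT, was found in 7 of 9 and in 1.44% of all. An X2-like run, TGNTGAC, was found in 9 of 9 and in 11.7% of all, and a Y-box-like run, ATTGG, in 9 of 9 and in 34.5% of all. No pair of these motifs overlaps in the promoters shown. B2m and H2-T23 hold neither the exact kappa-B-like nor the exact interferon-response-like letters in this window, and H2-T22 and H2-M3 lack the first of them. Other spellings of such elements were not searched, so a missing match does not show that a promoter lacks the element. A match is a description of letters, not a binding site.

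The libraries held 152457679 and 170539226 UMIs (unique molecular identifiers, each counting 1 captured transcript) in the anti-CD8 group and 153016369 and 152625351 in the IgG group. After filtering there were 7481 and 7816 anti-CD8 cells and 6108 and 6290 IgG cells, with a median of 17284 and 18365.5 UMIs per anti-CD8 cell and 21950.5 and 20469.5 per IgG cell. Between 26 and 44 cell barcodes of a library also occurred in another one. The cells formed 29 clusters, which were named from marker genes (each name stands for a likeness, such as microglia-like, and is shortened here). Classes with at least 20 cells in each library numbered 14, and the named ones carried their own defining markers. Some clusters stayed unnamed or mixed and are called by their leading genes or lineages. Microglia include 2 clusters whose microglia markers were below the average of all cells and which took the name because those markers exceeded the level of the macrophage cluster. The antibody's target was lower: Cd8b1 in T cells stood at 272 and 175 CPM in the anti-CD8 libraries, against 718 and 500 CPM in the IgG libraries (log2 fold change -1.43, SE 0.22, adjusted p = 0.0245). The first IgG library stood apart. It had 458 interferon-high microglia, or 18.2% of its microglia, against 81 (3.55%) in the second IgG library, and 60 (2.09%) and 114 (3.41%) in the anti-CD8 libraries. Results are therefore also given without this library.

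All 9 members were detected in all 4 libraries. The classical chains were read from 109049 and 140021 UMIs of H2-K1 in the anti-CD8 libraries and 125064 and 127541 in the IgG libraries. H2-D1 had 182679 and 233409 UMIs in the anti-CD8 libraries and 216963 and 231130 in the IgG libraries. B2m gave 269262 and 348865 UMIs in the anti-CD8 libraries, against 359213 and 351271 in the IgG libraries. H2-T22, with the fewest UMIs, had between 5286 and 6482 UMIs per library. Capture at the 3′ end differs between transcripts, so the levels of different chains are not ranked against each other; each chain is compared across cells.

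**Figure D1:**
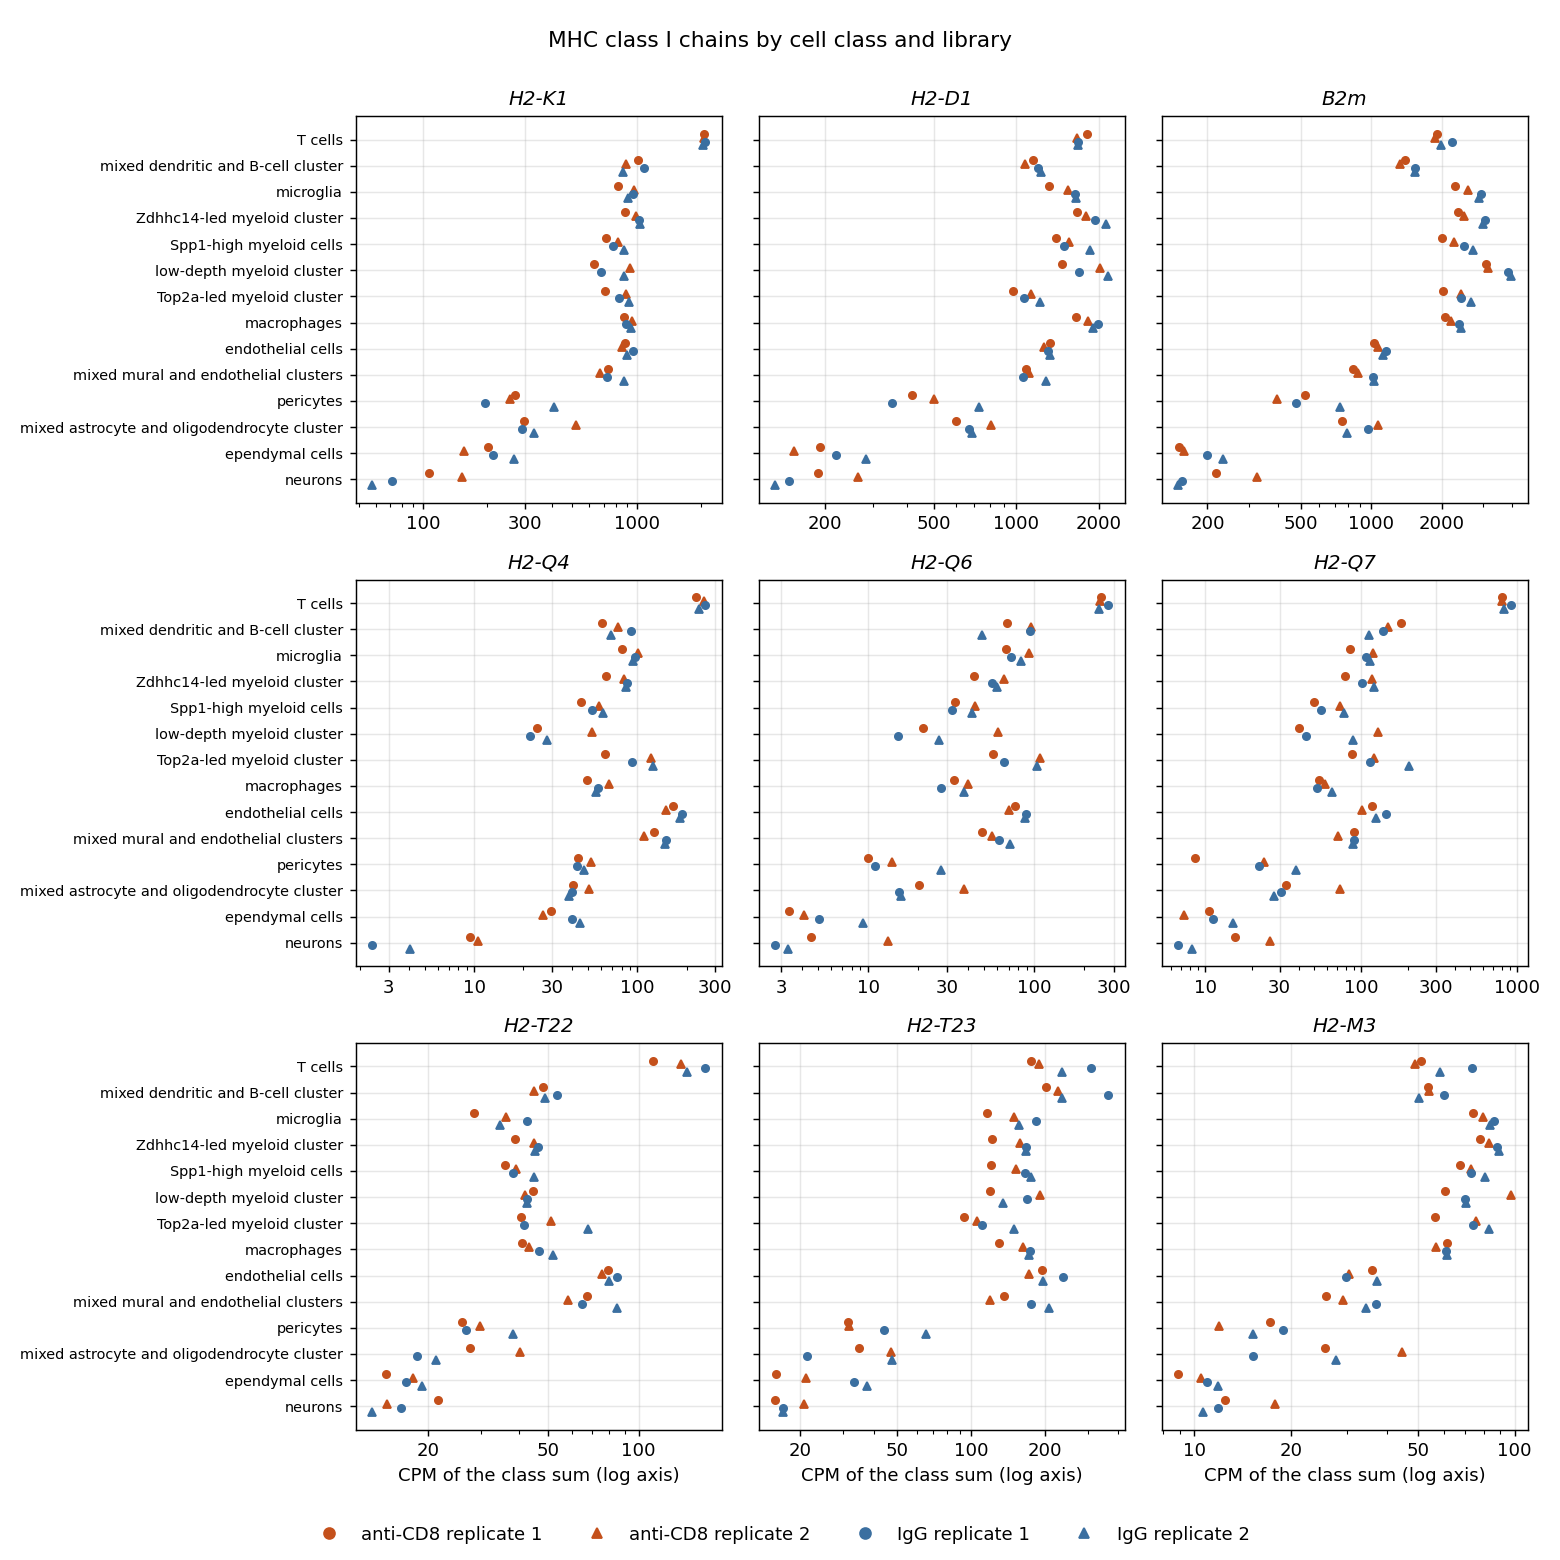
Level of each chain in 14 cell classes, as CPM (UMIs of the gene scaled to a common total of UMIs in the class sum) on a log axis, 1 point per library (orange anti-CD8, blue IgG; circles replicate 1, triangles replicate 2). Of these 14 classes, T cells lie above all others for H2-K1 and for H2-Q4, H2-Q6, H2-Q7 and H2-T22, while neurons and ependymal cells lie at or near the bottom for every chain. The T-cell range for H2-K1, H2-Q4, H2-Q6 and H2-T22 overlaps that of NK cells, which are not among the 14.

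Across cell classes the chains did not share 1 order. Among the tested classes, H2-K1 was highest in T cells. Their mean over the 4 libraries was 2069 CPM (lowest 2045, highest 2093). NK cells, too few for a test, averaged 2035 CPM (1998 to 2063) and overlapped the T cells. The next tested class, the Zdhhc14-led myeloid cluster, had a mean of 984 CPM (882 to 1037). From there down to the mixed mural and endothelial clusters (751 CPM, 674 to 871), each class overlapped the next, so their order is not resolved. Pericytes averaged 283 CPM, ependymal cells 209 CPM and neurons 96.9 CPM (57.7 to 153), and the neurons lay below every other class in all libraries.

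H2-D1 had no such T-cell peak. Its highest means among tested classes were 1878 CPM in the Zdhhc14-led cluster, 1839 CPM in macrophages and 1836 CPM in the low-depth myeloid cluster. T cells followed with 1708 CPM, and all of these overlapped. NK cells averaged 1734 CPM (1603 to 1805). Microglia averaged 1537 CPM (1311 to 1651) and endothelial cells 1307 CPM (1264 to 1328). Ependymal cells (212 CPM) and neurons (183 CPM, 132 to 264) were lowest and overlapped. The share of H2-K1 in the classical UMIs accordingly differed by lineage: it averaged 54.8% in T cells, 54.0% in NK cells and 49.8% in ependymal cells, against 37.4% in microglia and 29.8% in the low-depth cluster.

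B2m was highest in myeloid cells. The low-depth myeloid cluster averaged 3516 CPM (3086 to 3966), the Zdhhc14-led cluster 2735 CPM, microglia 2684 CPM (2294 to 2953), macrophages 2269 CPM and T cells 2002 CPM (1874 to 2223). Endothelial cells averaged 1096 CPM, pericytes 535 CPM, neurons 212 CPM (150 to 325) and ependymal cells 186 CPM (151 to 234), the last pair overlapping. The classes with most B2m were thus not the class with most H2-K1.

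Among the non-classical chains, the Qa-2 gene H2-Q7 stood highest in lymphocytes. T cells averaged 837 CPM (801 to 915), and the next tested class, the mixed dendritic and B-cell cluster, 145 CPM (113 to 181). NK cells, which were too few for a test (16 to 122 per library), had 657 and 648 CPM in the anti-CD8 libraries and 776 and 629 CPM in the IgG libraries, a range below that of T cells. H2-Q4 and H2-Q6 had the same leading class, with 246 CPM and 256 CPM in T cells. NK cells averaged 207 CPM of H2-Q4 (173 to 232) and 252 CPM of H2-Q6 (203 to 273), overlapping the T cells in both. Of the tested classes, H2-Q4 was next highest in endothelial cells (171 CPM, 150 to 187) and lowest in neurons (6.60 CPM).

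Of the H2-T chains, H2-T22 leaned to lymphocytes and vessels. H2-T22 averaged 140 CPM in T cells (112 to 166) and 79.9 CPM in endothelial cells (75.4 to 85.0), against 35.4 CPM in microglia. NK cells averaged 157 CPM (98.0 to 276) and overlapped the T cells. H2-T23 had no single leading class: the mixed dendritic and B-cell cluster (257 CPM), T cells (227 CPM) and endothelial cells (200 CPM) overlapped. Microglia (152 CPM, 117 to 184) and the low-depth myeloid cluster (154 CPM, 119 to 191) overlapped the T cells and endothelial cells in turn. Neurons were lowest at 17.7 CPM (15.8 to 20.8). H2-M3 instead had its highest means in the Zdhhc14-led cluster, with 84.7 CPM, and in microglia, with 80.8 CPM (74.1 to 86.1), against 33.3 CPM in endothelial cells. Macrophages, at 60.2 CPM (56.7 to 61.6), lay within the range of T cells, at 58.1 CPM (48.9 to 73.8).

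Counts of H2-Q4, H2-Q6, H2-T22 and H2-T23 are less certain than those of the other members, because their 3′ ends hold runs shared with other genes. Of the 411 windows of 90 bases in the last 500 bases of the transcript, 26.5% of those of H2-T22 recur in H2-T10. For H2-T23 the share is 13.4% (Rab33b, Hook2 and a pseudogene), for H2-Q6 10.9% (H2-Q4 among others) and for H2-Q4 9.5%. The other 5 members had none.

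The genes whose pattern over the 14 classes was most like that of the classical chains were Psmb8, an immunoproteasome subunit (Pearson r = 0.955), Zfp984 (0.949), Casp8 (0.939), Eef2 (0.932) and Srgn (0.931). Those most like the non-classical chains were Zbp1, an interferon-induced nucleic acid sensor (0.968), Def6 (0.965), Il2rg, the common cytokine receptor gamma chain (0.959), Gm27201 (0.958) and the immunoproteasome subunit Psmb9 (0.953). These are correlations of log2(CPM + 1) class means, taken from 14716 genes, and the classes share the same 4 libraries and their depths.

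The make-up of the heavy-chain pool followed these orders. Non-classical chains gave on average 31.8% of heavy-chain UMIs in T cells, 29.1% in NK cells, 23.7% in endothelial cells, 21.1% in neurons, 18.2% in microglia and 13.1% in macrophages. The 3 H2-Q genes alone gave 24.1% in T cells and 21.4% in NK cells, against 9.28% in microglia and 4.72% in macrophages. B2m was counted 0.894 times per heavy-chain UMI in microglia and 0.716 times in macrophages, but 0.379 times in endothelial cells, 0.361 times in T cells and 0.354 times in ependymal cells. These are ratios of 3′ counts, not of protein.

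The anti-CD8 and IgG libraries were then compared within each class. No member passed the threshold (an adjusted p under 0.05 over all genes of the class in edgeR's quasi-likelihood fit) in any of the 125 pairs of a member and a class that could be tested; 1 pair, H2-Q6 in pericytes, was too low to test. Of all genes, 0.0171% were called in microglia, 0.797% in T cells, 0.645% in neurons, 0.333% in the Top2a-led cluster, 0.0224% in the Zdhhc14-led cluster and 0.00701% in ependymal cells, and 0.0% in the other 8 classes. At an unadjusted p under 0.05 between 0 and 6 of the members passed per class, 45 of the 125 pairs in all (36.0%, against 6.05% of all tests of a gene in a class). The most were 6 of 9 in neurons (9.95% of all genes), in ependymal cells (2.31%) and in the Zdhhc14-led cluster (6.54%). DESeq2 called 4 pairs where 0.125% of all tests were called: B2m in the Spp1-high cells, the Zdhhc14-led cluster and neurons, and H2-K1 in neurons. Leaving out 1 library called 10 pairs without the first anti-CD8 library (0.421% of all tests), 5 without the second (0.301%), 8 without the first IgG library (0.829%) and 6 without the second (1.27%). With no filter on low counts 19 pairs were called, 13 lower and 6 higher, where 0.906% of all tests of a gene in a class were called. The values that follow are therefore sizes and orders of libraries, not calls.

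**Figure D2:**
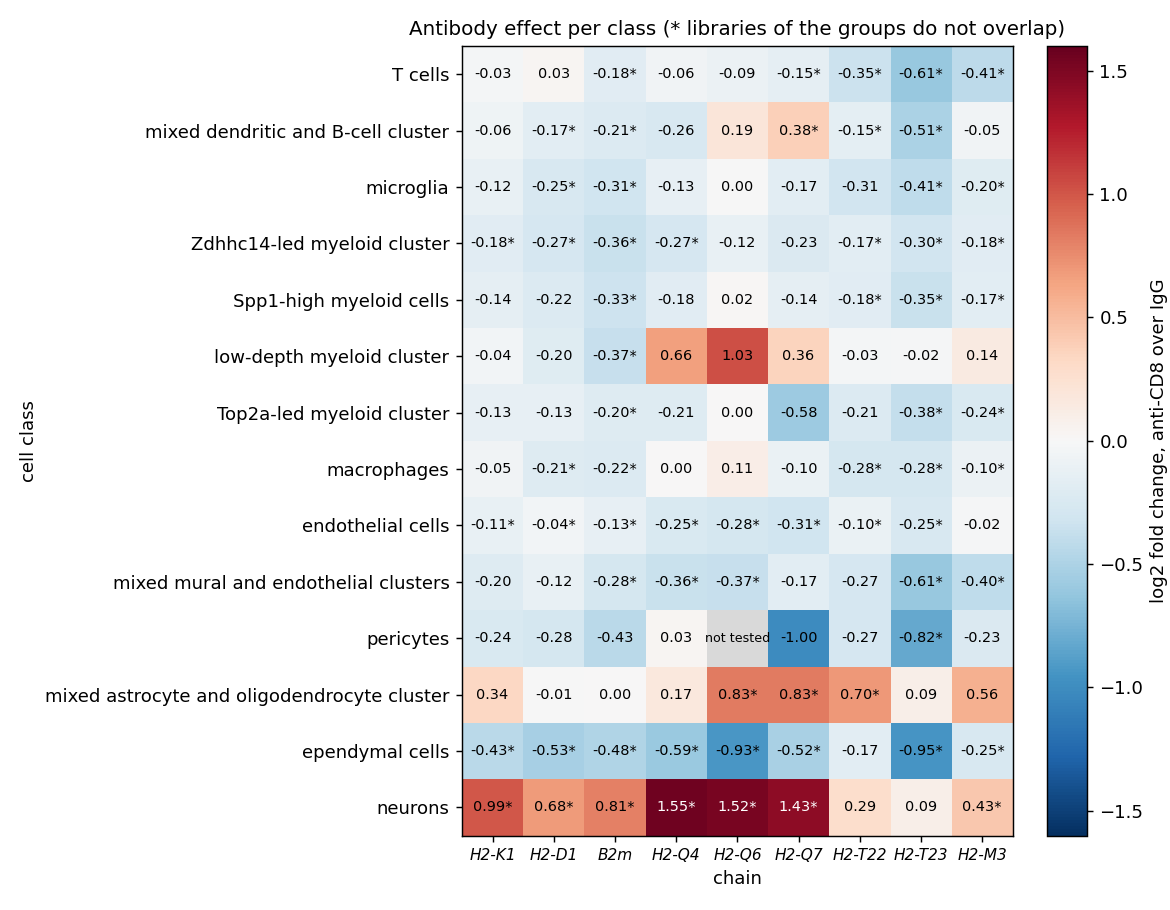
Log2 fold change, anti-CD8 over IgG, of each chain (columns) in each class (rows); blue is below 0 and red above, and an asterisk marks pairs whose libraries do not overlap between the groups. The B2m and H2-T23 columns are below 0 in 12 of 14 classes each, and the neuron row is above 0 for all 9 chains.

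In most classes the summed counts of the light chain were lower in the anti-CD8 than in the IgG libraries, with no class called. In microglia B2m stood at 2236 and 2563 CPM in the anti-CD8 libraries, against 3008 and 2957 CPM in the IgG libraries (TMM-normalised, as are the group values of single genes below, except C1qa). Both anti-CD8 libraries were lower and the groups did not overlap. The log2 fold change was -0.31 (SE 0.09), with an adjusted p of 0.632 by edgeR. B2m was below 0 in 12 of 14 classes, and in 11 of them the anti-CD8 libraries were the lower pair, an order that 14.0% to 21.5% of all genes had per class. Its median over the 14 classes was -0.25. The classes come from the same 4 libraries, so their values are not independent of each other, for B2m or for any other member.

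In the 5 other myeloid classes B2m lay between -0.37 and -0.20. In the Zdhhc14-led cluster B2m had 2331 and 2472 CPM in the anti-CD8 libraries and 3096 and 3075 CPM in the IgG libraries (-0.36, SE 0.06, adjusted p = 0.149). In the Spp1-high cells it had 1993 and 2223 CPM in the anti-CD8 libraries, against 2529 and 2767 CPM in the IgG libraries (-0.33, SE 0.07, adjusted p = 0.353). The groups were apart in both classes. B2m was -0.37 in the low-depth cluster, -0.22 in macrophages and -0.20 in the Top2a-led cluster. Within microglia, each of the 6 clusters taken alone gave a B2m value below 0, from -0.33 to -0.16, with a smallest adjusted p of 0.0844.

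Without the first IgG library B2m in microglia was -0.30 (adjusted p = 0.520), close to the value with it. It passed the threshold in the Spp1-high cells (-0.39, adjusted p = 0.0114) and in the Zdhhc14-led cluster (-0.36, adjusted p = 0.0264) on those 3 libraries. In the Spp1-high cells it did not pass without the second IgG library (-0.26, adjusted p = 0.0524), without the first anti-CD8 library (-0.26, adjusted p = 0.500) or without the second (-0.41, adjusted p = 0.188). In the Zdhhc14-led cluster it passed in each of the 4 fits that left out a library, from -0.40 to -0.32. In such fits the lone library of a group is assumed to vary as the pair of the other group does. In T cells, in contrast, B2m was -0.18 with all libraries and -0.08 without the first IgG library. Of the 3 T-cell clusters taken alone, 1 gave a B2m value below 0, and the values ran from -0.14 to 0.29.

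H2-T23, the Qa-1 gene, had the lowest median of the 9 members over classes, -0.37. It was below 0 in 12 of 14 classes. In 11 of them the anti-CD8 libraries were the lower pair, an order that 14.0% to 21.5% of all genes had per class. In microglia it had 113.8 and 148.7 CPM in the anti-CD8 libraries, against 187.6 and 160.7 CPM in the IgG libraries (-0.41, SE 0.13, adjusted p = 0.632). The first IgG library was the highest and the second lay near the upper anti-CD8 library. Without the first IgG library the value was -0.29 (adjusted p = 0.689). It was -0.62 (adjusted p = 0.0482) without the second anti-CD8 library, -0.52 (adjusted p = 0.0242) without the second IgG library and -0.23 (adjusted p = 0.856) without the first anti-CD8 library.

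In T cells H2-T23 stood at 174.5 and 189.9 CPM in the anti-CD8 libraries and at 320.3 and 236.6 CPM in the IgG libraries. Both anti-CD8 libraries were below both IgG libraries, and the IgG libraries were far apart from each other. The log2 fold change was -0.61 (SE 0.15, adjusted p = 0.128), and -0.38 (adjusted p = 0.351) without the first IgG library. Without the second IgG library it was -0.81 (adjusted p = 0.0002). The summed level of 20 type I interferon response genes was 1026 and 1344 CPM in anti-CD8 T cells, against 2380 and 1219 CPM in IgG T cells. The first IgG library was highest in this sum too, but the groups overlapped, with the second IgG library between the anti-CD8 libraries. The part of this sum in the H2-T23 value was not tested.

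Of the 14 classes, the H2-T23 value lay furthest below 0 in ependymal cells, which line the central canal. They had 16.2 and 21.0 CPM in the anti-CD8 libraries, against 34.7 and 36.6 CPM in the IgG libraries (-0.95, SE 0.18, adjusted p = 0.297). The groups were apart, and the IgG libraries lay close together. Without the first IgG library the value was -0.98, with an adjusted p of 0.00437. H2-T23 was then past the threshold in this class, as it also was without the second IgG library (-0.92, adjusted p = 0.0279). It was not past it without the first anti-CD8 library (-0.75, adjusted p = 1.00) or without the second (-1.13, adjusted p = 0.3005).

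The other non-classical chains gave values nearer 0 in microglia. H2-M3 was below 0 in 11 of 14 classes, in microglia at 72.3 and 78.7 CPM in the anti-CD8 libraries against 87.8 and 85.2 CPM in the IgG libraries (-0.20, SE 0.06, adjusted p = 0.632). H2-T22 in microglia had 27.7 and 35.8 CPM in the anti-CD8 libraries, against 43.4 and 35.3 CPM in the IgG libraries, so the groups overlapped and the first IgG library alone was high; its value of -0.31 became -0.15 without it. For H2-Q6 in microglia the groups overlapped fully (65.9 and 91.9 CPM anti-CD8, 73.5 and 84.7 CPM IgG), with a fold change of 0.00 on the log2 scale. H2-Q4 (-0.13) and H2-Q7 (-0.17) overlapped as well. Without the first IgG library H2-M3 was -0.17, H2-Q4 -0.10, H2-Q6 -0.10 and H2-Q7 -0.21.

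Of the classical chains in microglia, H2-D1 separated the groups and H2-K1 did not. H2-D1 had 1278 and 1532 CPM in the anti-CD8 libraries, against 1671 and 1682 CPM in the IgG libraries, with no overlap (-0.25, SE 0.09, adjusted p = 0.635). H2-K1 had 794 and 962 CPM in the anti-CD8 libraries, against 981 and 929 CPM in the IgG libraries, with overlap (-0.12, SE 0.10, adjusted p = 0.778). The share of H2-K1 in the classical UMIs of microglia was 38.3% and 38.6% in the anti-CD8 libraries and 37.0% and 35.6% in the IgG libraries, a difference of 2.16 percentage points in an exact permutation test that cannot give a two-sided p below 0.33. The microglial values without the first IgG library were -0.26 for H2-D1 and -0.08 for H2-K1. H2-D1 was -0.13 without the first anti-CD8 library and -0.40 without the second. In macrophages H2-D1 was -0.21, with the groups apart, and H2-K1 -0.05, with overlap.

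In T cells neither classical chain separated the groups. H2-K1 stood at 2057 and 2077 CPM in the anti-CD8 libraries, against 2169 and 2051 CPM in the IgG libraries (-0.03, SE 0.09). H2-D1 stood at 1805 and 1673 CPM in the anti-CD8 libraries, against 1734 and 1682 CPM in the IgG libraries (0.03, SE 0.09). Without the first IgG library they were 0.01 for H2-K1 and 0.04 for H2-D1. The groups overlapped for both, and these standard errors leave room for changes of a size like that of B2m in these cells.

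**Figure D3:**
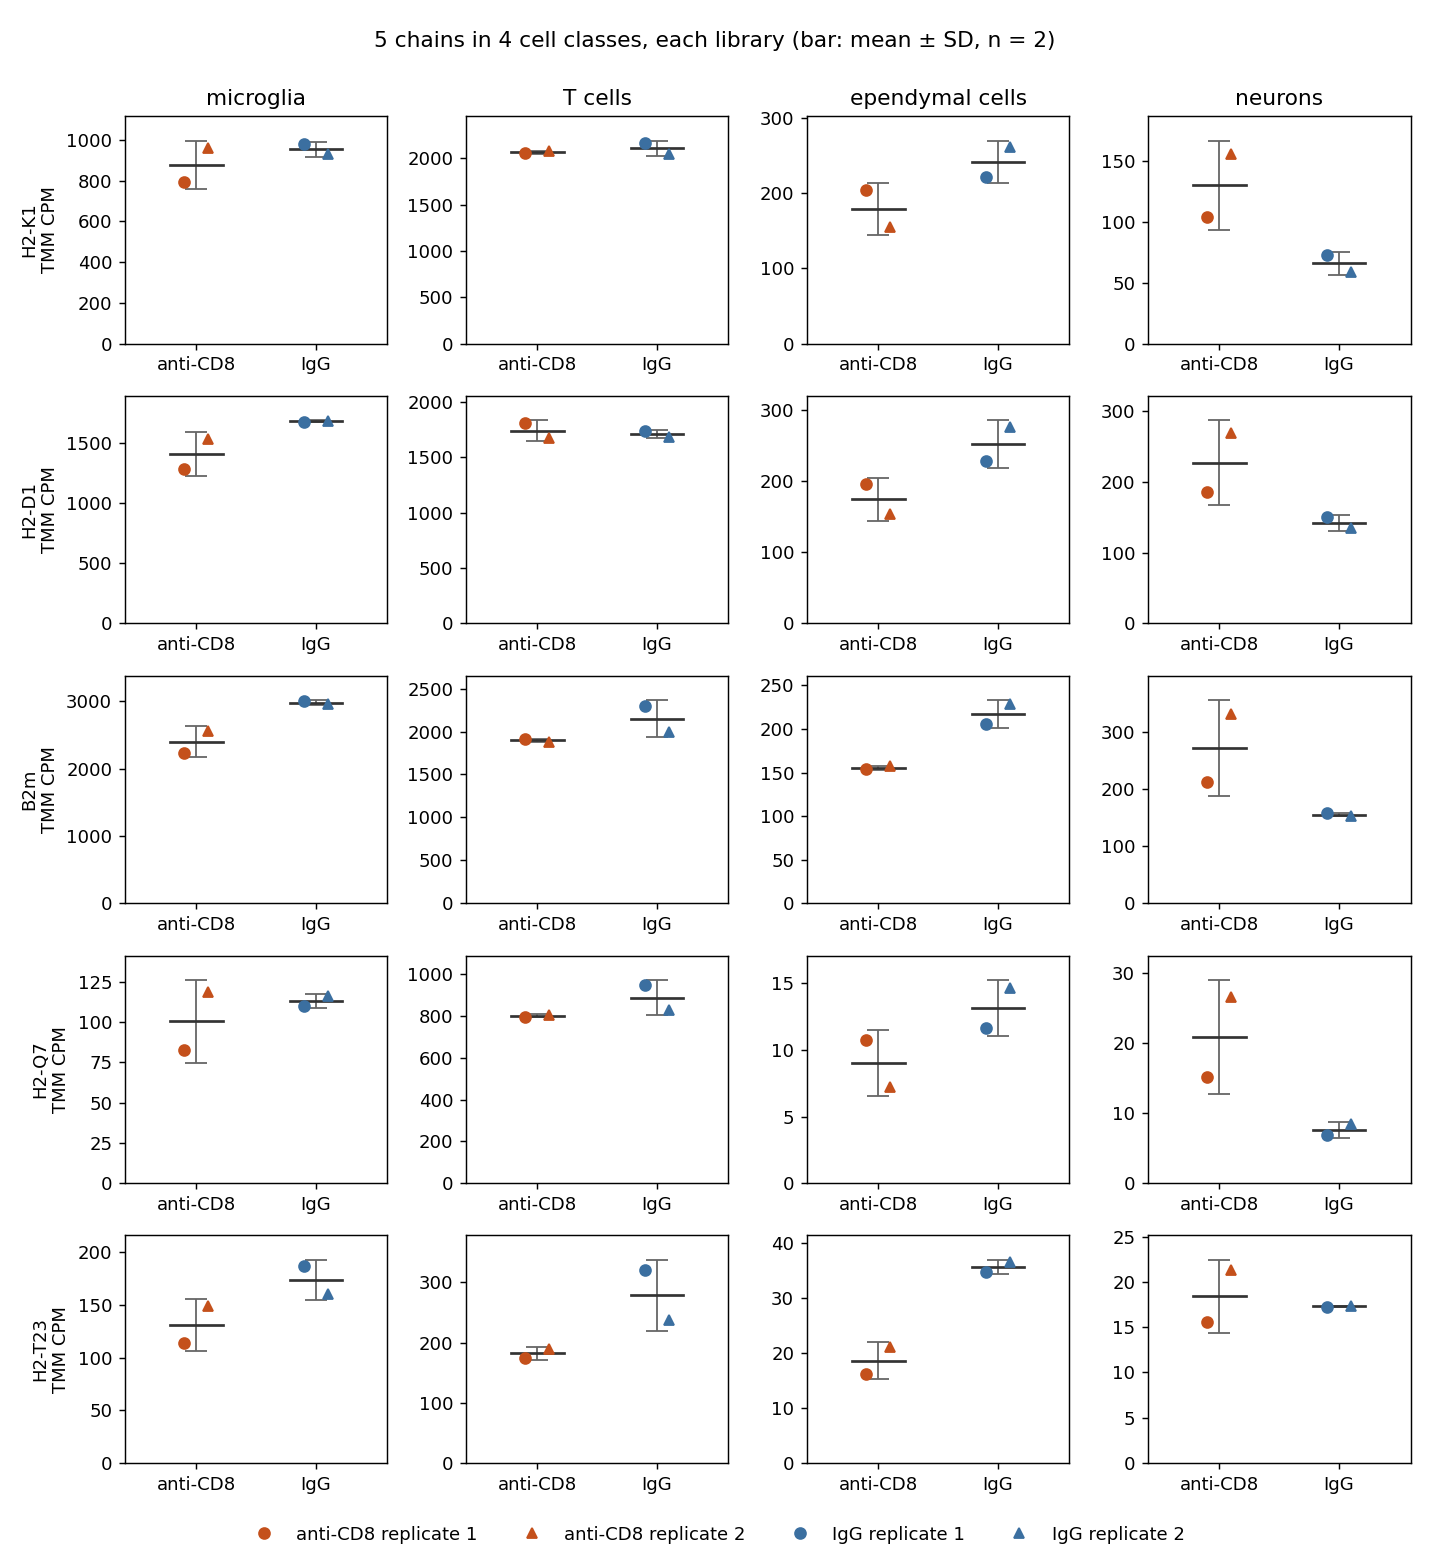
TMM-normalised CPM of 5 chains (rows) in microglia, T cells, ependymal cells and neurons (columns), 1 point per library, with anti-CD8 on the left and IgG on the right; the bar is the mean ± SD of 2 libraries and every axis starts at 0. B2m is lower in anti-CD8 microglia, T cells and ependymal cells and higher in anti-CD8 neurons, while H2-T23 in neurons overlaps between the groups.

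Counted by class, 9 of 9 members were below 0 in microglia, endothelial cells, ependymal cells, the Zdhhc14-led cluster and the mixed mural and endothelial clusters. The anti-CD8 libraries were the lower pair for 8 members in endothelial cells (16.4% of all genes had this order), 8 in ependymal cells (14.0%), 7 in the Zdhhc14-led cluster (18.6%), 5 in the mural and endothelial clusters (15.5%), 5 in macrophages (16.7%), 5 in T cells (21.5%), 4 in microglia (19.6%) and 4 in the Spp1-high cells (18.8%). The median member value was -0.52 in ependymal cells, -0.28 in the mural and endothelial clusters, -0.23 in the Zdhhc14-led cluster, -0.20 in microglia, -0.15 in T cells and -0.13 in endothelial cells, where the medians of all genes were between -0.01 and 0.00. The members of a class share libraries and their scaling, so they are not independent of each other. The anti-CD8 libraries were the upper pair for 0 members in microglia (19.8% of all genes), the Spp1-high cells (18.9%), T cells (21.0%), endothelial cells (16.4%), ependymal cells (13%), macrophages (17.4%), the Zdhhc14-led cluster (17.6%) and the mural and endothelial clusters (16.0%). In the mixed dendritic and B-cell cluster they were the lower pair for 4 members (19.0%) and the upper pair for 1 (17.7%). Pericytes had 1 member with the anti-CD8 pair lower (15.7%) and 0 with it upper (15.5%), and the low-depth cluster likewise 1 (14.2%) and 0 (14.3%). In the mixed astrocyte and oligodendrocyte cluster 0 members had the anti-CD8 pair lower (14.0%) and 3 had it upper (14.9%), with a median of 0.34 on 20 to 129 cells per library.

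In endothelial cells H2-Q7 (-0.31) and H2-Q6 (-0.28) lay furthest below 0 among the members. H2-Q7 had 117.3 and 101.5 CPM in the anti-CD8 libraries, against 147.2 and 125.1 CPM in the IgG libraries (SE 0.11, adjusted p = 0.947). H2-Q7 was -0.19 and H2-Q6 -0.26 without the first IgG library. H2-D1 was at 1326 and 1262 CPM in the anti-CD8 libraries and at 1330 and 1327 CPM in the IgG libraries (-0.04). The non-classical share of heavy-chain UMIs was 23.2% and 22.1% in the anti-CD8 libraries, against 25.4% and 24.2% in the IgG libraries, a difference of -2.14 percentage points that was -1.52 without the first IgG library. The exact 95% intervals of the anti-CD8 shares, 22.7 to 23.7 and 21.5 to 22.7, lay below those of the IgG shares, except that the first overlapped the second IgG interval of 23.6 to 24.8. These intervals cover counting error only, not the spread between libraries, so they do not test the groups.

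In T cells the non-classical share was 29.5% and 31.1% in the anti-CD8 libraries, against 34.7% and 32.0% in the IgG libraries. The difference was -3.05 percentage points with the groups apart, and -1.67 without the first IgG library. It was -0.968 in T cells without a CD8 UMI, where the groups overlapped. The H2-Q genes gave 7.87% and 9.61% of heavy-chain UMIs in anti-CD8 neurons, against 4.29% and 6.35% in IgG neurons, with the groups apart. The whole non-classical share of neurons did not rise with them. Its difference, anti-CD8 minus IgG, ran from -2.38 to -0.0755 percentage points on leaving out 1 library. In microglia the non-classical share did not separate the groups, at 17.5% and 18.7% in the anti-CD8 libraries and 18.5% and 18.1% in the IgG libraries, a difference of -0.184. The ratio of B2m to heavy chains in microglia was 0.890 and 0.836 in the anti-CD8 libraries, against 0.925 and 0.928 in the IgG libraries. This difference of -0.0634 remained at -0.0648 without the first IgG library. With 2 against 2 libraries the exact two-sided permutation test cannot give a p below 0.33 for any of these shares and ratios.

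Since CD8 is the antibody's target, T cells were also split by whether a cell had a UMI of Cd8a or Cd8b1, a split made after the data were seen. With a CD8 UMI there were 151 and 89 T cells in the anti-CD8 libraries and 272 and 490 in the IgG libraries, and without one 267 and 169 in the anti-CD8 libraries and 57 and 215 in the IgG libraries. H2-T23 in cells without a CD8 UMI was 172 and 188 CPM in the anti-CD8 libraries, against 253 and 204 CPM in the IgG libraries (-0.31). In cells with one it was 183 and 201 CPM in the anti-CD8 libraries, against 328 and 247 CPM in the IgG libraries (-0.58). The groups did not overlap on either side of the split, and without the first IgG library the value in cells with no CD8 UMI was -0.18. H2-K1 was -0.0050 in cells with a CD8 UMI, with overlap. In cells without one it was 0.05, where both anti-CD8 libraries (2081 and 2110 CPM) lay above both IgG libraries (2033 and 2024 CPM).

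**Figure D4:**
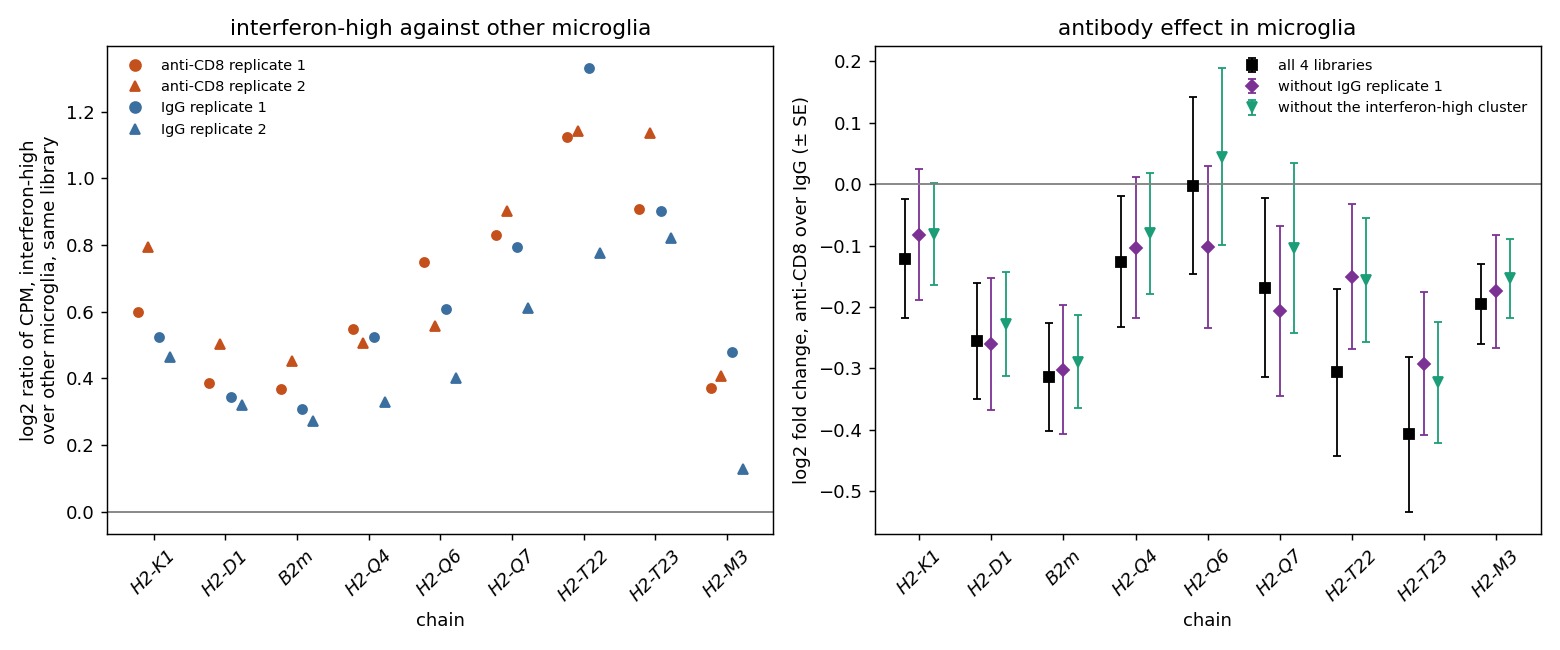
Left, log2 ratio of each chain's CPM in interferon-high over other microglia of the same library, 1 point per library; right, log2 fold change of each chain, anti-CD8 over IgG, in microglia with all 4 libraries, without IgG replicate 1 and without the interferon-high cluster (± SE). Every ratio is above 0, with the highest means for H2-T22 and H2-T23, and B2m lies between -0.31 and -0.29 in the 3 fits.

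The interferon-high microglia had more of every chain. In all 4 libraries each of the 9 members was above its level in the other microglia. The mean log2 ratio was 1.09 for H2-T22 (SD 0.23, n = 4 libraries, 0.78 to 1.33), 0.94 for H2-T23 (SD 0.14), 0.78 for H2-Q7 and 0.60 for H2-K1, but 0.39 for H2-D1, 0.35 for B2m and 0.35 for H2-M3. The cluster was formed from the same counts, so this is a description with no test. The non-classical share was 20.4% and 20.7% in the anti-CD8 libraries and 21.4% and 19.9% in the IgG libraries in this cluster, against 17.4% and 18.6% (anti-CD8) and 17.6% and 18.0% (IgG) in the other microglia.

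With this cluster left out, microglia gave -0.29 for B2m (SE 0.08), -0.32 for H2-T23 (SE 0.10), -0.23 for H2-D1 and -0.16 for H2-T22. The summed interferon response genes were then at 827 and 969 CPM in the anti-CD8 libraries and at 1113 and 930 CPM in the IgG libraries. With the cluster they were at 895 and 1093 CPM in the anti-CD8 libraries and at 1923 and 1021 CPM in the IgG libraries. B2m was thus about as far below 0 without the interferon-high cells as with them, whereas H2-T22 was closer to 0. All 20 of these interferon genes were below 0 in microglia with a median of -1.43, and none passed the threshold. The median was -0.07 without the first IgG library, with 14 of the 20 below 0, so its size rests on that library. Without the second IgG library the median was -2.07 and all 20 passed.

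In neurons the values lay on the other side of 0. H2-K1 stood at 104 and 156 CPM in the anti-CD8 libraries, against 72.7 and 58.9 CPM in the IgG libraries (0.99, SE 0.21, adjusted p = 0.0723). B2m stood at 213 and 331 CPM in the anti-CD8 libraries, against 158 and 153 CPM in the IgG libraries (0.81, SE 0.20, adjusted p = 0.124). H2-Q7 stood at 15.2 and 26.7 CPM in the anti-CD8 libraries, against 6.82 and 8.44 CPM in the IgG libraries (1.43, SE 0.33, adjusted p = 0.0955). All 9 members were above 0, with the anti-CD8 libraries as the upper pair for 7 of them (19.7% of all genes) and as the lower pair for 0 (18.4%). H2-T23 was not among the 7, at 15.6 and 21.3 CPM in the anti-CD8 libraries and 17.3 and 17.4 CPM in the IgG libraries. Leaving out the first IgG library, H2-K1 (1.14, adjusted p = 0.00472) and H2-Q7 (1.31, adjusted p = 0.0219) passed the threshold. Without the second IgG library H2-Q7 passed (adjusted p = 0.00561) and H2-K1 did not (0.84, adjusted p = 0.0736). Without the first anti-CD8 library 5 members passed, and without the second none did, with H2-K1 at 0.67 (adjusted p = 0.209) and H2-Q7 at 0.96 (adjusted p = 0.369).

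The antibody effect in neurons differed from that in microglia for 4 members, in 1 fit over both classes with the library as a block (1.25% of all genes differed). The difference of log2 fold changes was 1.58 for H2-Q7 (SE 0.29, adjusted p = 0.00118), 1.65 for H2-Q4 (SE 0.39, adjusted p = 0.0127), 1.08 for H2-K1 (SE 0.27, adjusted p = 0.0248) and 1.08 for B2m (SE 0.28, adjusted p = 0.0363). The neuron counts behind the H2-Q values were small. H2-Q4 had 25 and 32 UMIs in the anti-CD8 libraries, against 6 and 17 in the IgG libraries. H2-Q7 had 41 and 79 UMIs in the anti-CD8 libraries, against 17 and 35 in the IgG libraries. H2-Q7 passed in each of the 4 fits that left out a library. B2m did not pass without either IgG library (0.0751 without the first and 0.0691 without the second). H2-Q4 did not pass without the first IgG library (0.179), nor H2-K1 without the second (0.155). In T cells 1.72% of all genes differed from microglia in this way, and no member did with all libraries (smallest adjusted p 0.380), though 1 did without the second anti-CD8 library. With all libraries no member passed in the other 11 classes either, where between 0 and 3 members had an unadjusted p under 0.05. Of all genes 0.775% differed in the mixed dendritic and B-cell cluster, 0.19% in the Top2a-led cluster, 0.109% in the mixed astrocyte and oligodendrocyte cluster, 0.098% in pericytes and 0.0592% in ependymal cells. The shares were 0.0121% in the Zdhhc14-led cluster, 0.012% in the low-depth cluster, 0.0119% in macrophages, 0.0104% in the mural and endothelial clusters, 0.00524% in endothelial cells and 0.0% in the Spp1-high cells.

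Markers of other cells moved with these neuron values. The 10 microglia markers summed to 393 and 510 CPM in anti-CD8 neurons, against 216 and 250 CPM in IgG neurons, with 10 of 10 higher on average and none at 0. C1qa, a complement gene of microglia and macrophages, had 522 and 731 CPM in anti-CD8 neurons, against 296 and 329 CPM in IgG neurons (no TMM factor). The 8 endothelial markers summed to 271 and 167 CPM in anti-CD8 neurons, against 31.2 and 114 CPM in IgG neurons. Their part in the result was not tested. Microglia themselves had 7177 to 7470 CPM of C1qa.

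Counted per C1qa UMI, the neuron values lost or reversed their direction for most members. B2m was 0.417 and 0.444 per C1qa UMI in anti-CD8 neurons, against 0.524 and 0.457 in IgG neurons. H2-K1 was 0.203 and 0.209 in anti-CD8 neurons, against 0.241 and 0.175 in IgG neurons. H2-Q7 kept its order, at 0.0297 and 0.0358 in anti-CD8 neurons, against 0.0227 and 0.0252 in IgG neurons. H2-Q4 kept it as well, at 0.0181 and 0.0145 in anti-CD8 neurons, against 0.008 and 0.0122 in IgG neurons. H2-D1 had 0.3615 and 0.3612 in anti-CD8 neurons, against 0.4987 and 0.4007 in IgG neurons. For H2-D1, H2-T23 and H2-M3, as for B2m, the anti-CD8 libraries were then the lower pair. H2-T22 and H2-Q6 overlapped between the groups, as H2-K1 did. In neurons without a C1qa UMI (33 and 34 anti-CD8 cells, 24 and 51 IgG cells; a split made after the data were seen) B2m was 63.4 and 51.5 CPM in the anti-CD8 libraries, against 66.4 and 42.2 CPM in the IgG libraries (0.13). H2-K1 was 57.6 and 32.0 CPM in the anti-CD8 libraries, against 31.0 and 17.5 CPM in the IgG libraries (0.97, adjusted p = 0.736), and only these and H2-D1 were high enough there to be tested. This H2-K1 value rests on 30 and 18 UMIs in the anti-CD8 libraries and 14 and 17 in the IgG libraries.

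Depth differed between the groups, so shares of cells were also put at a common depth, called thinning here. For each cell the probability of at least 1 UMI of the gene in a random draw of 2000 UMIs was computed. The mean of these probabilities is an expected share. For H2-T23 the expected share was 28.4% and 30.6% of anti-CD8 T cells, against 43.4% and 37.3% of IgG T cells (counted shares of 56.9% and 64.7% against 78.7% and 75.3% before thinning). In microglia the expected shares were 20.8% and 25.2% in the anti-CD8 libraries, against 30.0% and 26.4% in the IgG libraries (79.2% and 85.9% against 90.5% and 89.4% before thinning). In neurons the expected share for H2-K1 was 12.5% and 15.3% of anti-CD8 cells, against 7.36% and 7.70% of IgG cells. Before thinning the counted shares overlapped (41.2% and 50.0% against 44.0% and 39.9%). Thinning left out 4 to 30 T cells, 7 to 25 microglia and 2 to 31 neurons per library.

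The machinery that loads class I was followed as lists of genes. Of 13 genes for peptide processing and transport, 0 passed the threshold in microglia, 11 were below 0 and the median was -0.17, against a median of 0.00 over all genes. Tap1, the peptide transporter subunit, had 31.0 and 34.9 CPM in anti-CD8 microglia, against 49.4 and 36.9 CPM in IgG microglia (-0.39). Tap1 was -0.16 and the median of the 13 genes -0.06 without the first IgG library, and without the second Tap1 was -0.58 (adjusted p = 0.00193) and the median -0.24. In T cells 8 of 13 were below 0 with a median of -0.26, which was -0.06 without the first IgG library. Tap1 had 69.8 and 71.9 CPM in the anti-CD8 libraries, against 106 and 87.0 CPM in the IgG libraries, and the chaperone Calr went the other way, at 310 and 341 CPM in the anti-CD8 libraries and 247 and 227 CPM in the IgG libraries (0.46, adjusted p = 0.125). In neurons 0 of 13 were below 0, the median was 0.41, and Psmb8 had 29.6 and 35.8 CPM in the anti-CD8 libraries, against 14.9 and 16.7 CPM in the IgG libraries (1.04, adjusted p = 0.0702). Psmb8 was past the threshold without the second IgG library (1.14, adjusted p = 0.0271) and without the first anti-CD8 library (1.17, adjusted p = 0.0275), and not without either of the others.

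Among 14 regulators of class I transcription, Nfkb1 was the one called in T cells. This NF-kappa-B subunit had 645 and 657 CPM in the anti-CD8 libraries, against 334 and 392 CPM in the IgG libraries (0.84, SE 0.11, adjusted p = 0.0147). Nlrc5, the transactivator of class I genes, had 184 and 213 CPM in anti-CD8 T cells, against 258 and 228 CPM in IgG T cells (-0.29, adjusted p = 0.413). Of the interferon receptors, Ifngr2 was higher in anti-CD8 T cells, with 60.2 and 58.7 CPM, against 30.0 and 30.4 CPM in IgG T cells (0.98, SE 0.15, adjusted p = 0.0254). Both were called in the class where the classical chains overlapped between the groups. The make-up of this class also differed between the groups. T cells with a CD8 UMI were 151 of 418 and 89 of 258 in the anti-CD8 libraries. They were 272 of 329 and 490 of 705 in the IgG libraries. The part of this shift in the Nfkb1 and Ifngr2 values was not tested.

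The Top2a-led myeloid cluster, led by cell-division genes, was, with all 4 libraries, the only 1 of the 14 classes where genes of the class II list were called. H2-Aa had 214 and 172 CPM in the anti-CD8 libraries, against 1.13 and 14.1 CPM in the IgG libraries (4.85, SE 0.44, adjusted p = 0.000183), and H2-Ab1, H2-Eb1 and Cd74 were higher too. Ifng, Irf7, Cd8a and Cd8b1 were lower there, with Cd8b1 at 0.525 and 0.0 CPM in the anti-CD8 libraries and 43.0 and 35.7 CPM in the IgG libraries. Ifng (adjusted p = 0.313 and 0.237) and Irf7 (0.402 and 0.176) did not pass without the first or without the second anti-CD8 library. The 9 class I members were not called in it: B2m had 2034 and 2454 CPM in the anti-CD8 libraries, against 2534 and 2636 CPM in the IgG libraries (-0.20), and the anti-CD8 libraries were the lower pair for 3 members (18.2% of all genes) and the upper pair for 0 (18.1%). H2-Q7 was -0.58 there. Leaving out 1 library moved it to between -0.92 (adjusted p = 0.000331, without the first IgG library) and -0.18 (adjusted p = 0.910, without the second IgG library), and it was past the threshold only in the first of these. Without the first anti-CD8 library it was -0.37 (adjusted p = 1.00). The cluster held 55 to 75 cells per library. The 10 T-cell markers in it summed to 25.5 and 110 CPM in the anti-CD8 libraries, against 206 and 341 CPM in the IgG libraries, with 10 of 10 lower on average and none at 0. Their part in these values was not tested.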

How the data were processed

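Per the labels' protocols, cells of the lesion segment were captured with the 10x 3′ assay, and Cell Ranger 7.1.0 with build GRCm39 is named in the submitters' processing notes. The sources used here do not give the annotation release. The deposited values are raw UMI counts per gene and cell. A cell was kept if it had 300 genes or more and no more than 20% of its counts from mitochondrial genes, Scrublet doublets were removed (332 to 562 per library, at 0.8% per 1000 cells), and 3000 variable genes, 1 of them a member, were clustered in scanpy 1.11.5 (30 components, 15 neighbours, Leiden resolution 1). Clusters were named from markers. Summed counts per library and class were tested with edgeR 4.0.16 (TMM, low counts filtered, quasi-likelihood, Benjamini-Hochberg over all genes of the class, threshold 0.05), without a replicate block. CPM without a further note scales a gene's UMIs by the class total, with no TMM factor. DESeq2 1.42.0, other scalings, filters and clusterings, and leaving out each library were alternatives. The tests were checked on simulated data. The members and lists were chosen with earlier results of these data known. All members are described in every class, and from each list the genes past the threshold and some with the smallest p are named. Fibroblasts, neutrophils and NK cells were too few to test. A class sum does not tell fewer expressing cells from less RNA per cell.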

Additional observations from a re-analysis of the deposited data

Results flagged for a closer look

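The antibody effect differed between neurons and microglia for 4 members by the test of the difference itself, in edgeR's quasi-likelihood fit over both classes. The difference of log2 fold changes, neurons minus microglia, was 1.5787 for H2-Q7, 1.6497 for H2-Q4, 1.0772 for H2-K1 and 1.077 for B2m. H2-Q4 in neurons rests on 25 and 32 UMIs in the anti-CD8 libraries and 6 and 17 in the IgG libraries. In neurons both anti-CD8 libraries lay above both IgG libraries for all 4, and in microglia the 4 values ran from -0.31 to -0.12. Counted per C1qa UMI in neurons, the anti-CD8 libraries stayed the upper pair for H2-Q7 and H2-Q4, but not for H2-K1 and B2m. Microglia marker sums were also higher in anti-CD8 neurons (393 and 510 CPM) than in IgG neurons (216 and 250 CPM), and their part in these differences was not tested.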

How the results depend on the processing

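With all settings as reported, 0 of 125 pairs of a member and a class were called. DESeq2 called 4 (0.125% of all tests of a gene in a class were called), no filter on low counts 19 (0.906%), a stricter cell filter 1 (H2-K1 in neurons, 0.152%) and clustering without the class I genes 4 (all in neurons, 0.245%), where 0.130% were called with all settings as reported. Leaving out 1 library called 5 to 10 (0.301% to 1.27%). DESeq2 size factors, library totals without TMM and no doublet removal called 0. B2m in neurons per heavy-chain UMI differed by 0.0161, and by 0.0521 without doublet removal, 0.0531 with the stricter filter and 0.0676 with class I genes left out of clustering. The T-cell non-classical share difference of -3.05 was -0.968 where cells with a CD8 UMI were left out, and -4.42 to -1.67 on leaving out 1 library. The members differing from microglia numbered 4, and 2 to 7 on leaving out 1 library (2 without the second IgG library, 7 without the first anti-CD8 library).

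Log2 fold changes near 0 turned sign. H2-Q6 in microglia was 0.0482 with library totals, 0.0134 without doublet removal, 0.0241 with the stricter filter, 0.035 with class I genes left out of clustering and 0.0451 without the interferon-high cluster, and -0.27 to 0.21 on leaving out 1 library. On leaving out 1 library H2-K1 in microglia ran from -0.27 to 0.0089, H2-Q4 from -0.32 to 0.0381 and H2-Q7 from -0.46 to 0.0679. In T cells H2-K1 was 0.0004 with library totals and 0.0469 without a CD8 UMI (-0.0656 to 0.0076 on leaving out 1 library), and H2-D1 was -0.0109 without the filter and -0.0942 without doublet removal (-0.0332 to 0.0746). T cells without a CD8 UMI gave 0.0866 for H2-Q4, 0.0068 for H2-Q6 and 0.0811 for H2-Q7 (-0.16 to 0.0234 for H2-Q4 and -0.19 to 0.0182 for H2-Q6 on leaving out 1 library). H2-T23 in neurons ran from -0.16 to 0.29 and H2-K1 in macrophages from -0.12 to 0.0078. The causes were not tested.

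Replicate numbers are shared by the groups in the labels, but same-numbered microglia libraries did not deviate together (r = -0.009 over 17524 genes). With the replicate block 7 pairs were called, where 0.523% of all tests were: B2m and H2-T23 in Spp1-high cells, H2-T23 in ependymal cells, and B2m, H2-K1, H2-Q4 and H2-Q7 in neurons. With 2 libraries per group, and 1 where a library is left out, the spread rests on few values.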
